A study of Mus musculus with 24 samples.

Results

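The cell cycle and DNA replication genes read here are 50 listed genes, 20 that act in S phase and 30 that act in mitosis, out of 35868 gene symbols with summed counts. They were chosen by name and function, and all 50 passed the filter on low values in the fits reported. They were read in 24 RNA sequencing libraries of sorted splenic T cells, 3 libraries in each of 8 groups: CD8+ or CD4+ T cells of C57BL/6 background, *Cat-Tg* or WT, taken pre-tx or on day 7 post-tx. The *Cat-Tg* transgene encodes human β-catenin without its N-terminal part, cloned in the p1017 vector, whose proximal Lck promoter is active in thymocytes and T cells. Founders were made in FVB mice and backcrossed to C57BL/6, and WT donors were C57BL/6 without the transgene. For the post-tx groups, lethally irradiated, MHC-mismatched BALB/c recipients received T cell-depleted WT bone marrow with a 1:1 mixture of donor CD4+ and CD8+ T cells, and donor cells were sorted from spleen by H-2Kb, which the donor marrow carries too. CD4+ and CD8+ cells were sorted from each mouse, but the labels do not say which libraries share a mouse. By the study's methods the animals were young adults matched for age and sex.

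A T cell that meets its antigen leaves quiescence, passes from G1 into S phase, copies its DNA and divides. Entry into S phase follows when cyclin E with its kinase releases E2F transcription factors from the retinoblastoma protein. E2F targets include the genes that load and start replication origins and those that make deoxynucleotides. Later, the B-Myb and FoxM1 factors, which bind with the MuvB core of the DREAM complex at promoters that often hold a cell cycle genes homology region (CHR), drive the cyclins, kinases, kinesins and centromere proteins of mitosis.

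The S phase members were the G1/S regulators Ccne1, Ccne2 and E2f1; the origin licensing and helicase genes Cdc6, Cdt1, Mcm2, Mcm3, Mcm4, Mcm5, Mcm6, Mcm7, Mcm10, Cdc45 and Gins2; Pcna, the sliding clamp of DNA polymerase, and Uhrf1, which keeps DNA methylation through replication; and Rrm1, Rrm2, Tyms and Tk1, which supply deoxynucleotides. The mitosis members were the transcription factors Foxm1 and Mybl2; Ccna2, Ccnb1, Ccnb2 and their kinase Cdk1; the kinases Aurka, Aurkb and Plk1 with Birc5 and Cdca8 of the chromosomal passenger complex; Bub1, Bub1b, Mad2l1 and Ttk of the spindle checkpoint; Cdc20 and Ube2c, which work with the anaphase promoting complex; the centromere genes Cenpa, Cenpe and Cenpf; the spindle and cytokinesis genes Kif11, Kif20a, Kif23, Tpx2, Nusap1, Prc1, Hmmr and Stmn1; and Top2a and Mki67, which act on chromosome structure.

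RefSeq promoter sequences (GRCm38.p6, from 250 bases before to 50 after the start) were available here for 41 of the 50 members, and textbook words for 3 motifs were searched on both strands. S phase and mitosis promoters are counted by gene, as holding a word if any promoter of the gene did (3 members had 2). The shares of all promoters are counted by promoter, so the units differ. An E2F word (TTTCCCGC, TTTGGCGC, TTTCGCGC or TTTGCCGC; these can overlap one another) was found in 7 of 17 S phase promoters (41.2%) and 1 of 24 mitosis promoters (4.17%), against 2.26% of all 32851 promoters. The CHR word TTTGAA showed the other distribution, with 17 of 24 mitosis promoters (70.8%), 2 of 17 S phase promoters (11.8%) and 17.9% of all promoters. The CCAAT word was in 64.7% of S phase, 83.3% of mitosis and 37.4% of all promoters. In the 250 bases before the start alone, the E2F word was in 5 of 17 S phase promoters (29.4%; 1.86% of all) and the CHR word in 8 of 24 mitosis promoters (33.3%; 16.0% of all), fewer than the 17 of the whole window. In the whole window, Cdk1 was the 1 member whose promoter held both an E2F word and a CHR word. A match is a description of letters and not of binding. The 250 bases before the start are printed, 5′ to 3′ on the gene's strand, for the 3 members with an E2F word and the 3 with a CHR word of highest mean TPM among those with the word in these 250 bases, since these show where the words lie in genes that carry the results; the words are in capitals.
Mcm5, chr8:75109259-75109508, plus strand: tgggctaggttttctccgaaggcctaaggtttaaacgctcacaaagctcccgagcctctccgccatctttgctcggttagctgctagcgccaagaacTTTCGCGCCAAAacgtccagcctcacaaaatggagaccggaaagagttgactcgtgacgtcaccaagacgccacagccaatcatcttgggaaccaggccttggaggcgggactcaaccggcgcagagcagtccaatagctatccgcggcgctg
Mcm6, chr1:128359706-128359955, minus strand: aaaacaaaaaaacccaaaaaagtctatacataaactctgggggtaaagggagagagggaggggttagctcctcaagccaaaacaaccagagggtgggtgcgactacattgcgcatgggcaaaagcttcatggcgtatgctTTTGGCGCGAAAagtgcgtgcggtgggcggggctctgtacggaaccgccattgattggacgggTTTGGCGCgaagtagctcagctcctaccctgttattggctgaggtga
Mcm7, chr5:138171884-138172133, minus strand: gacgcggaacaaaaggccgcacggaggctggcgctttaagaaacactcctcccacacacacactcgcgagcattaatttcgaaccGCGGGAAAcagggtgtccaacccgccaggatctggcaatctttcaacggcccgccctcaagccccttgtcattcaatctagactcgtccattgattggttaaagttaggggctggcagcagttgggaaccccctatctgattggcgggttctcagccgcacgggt
Cdc20, chr4:118437344-118437593, minus strand: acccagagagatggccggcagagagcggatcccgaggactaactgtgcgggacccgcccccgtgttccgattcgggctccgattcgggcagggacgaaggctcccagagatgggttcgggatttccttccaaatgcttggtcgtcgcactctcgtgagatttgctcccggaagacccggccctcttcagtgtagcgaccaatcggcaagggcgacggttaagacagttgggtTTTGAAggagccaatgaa
Ube2c, chr2:164769679-164769928, plus strand: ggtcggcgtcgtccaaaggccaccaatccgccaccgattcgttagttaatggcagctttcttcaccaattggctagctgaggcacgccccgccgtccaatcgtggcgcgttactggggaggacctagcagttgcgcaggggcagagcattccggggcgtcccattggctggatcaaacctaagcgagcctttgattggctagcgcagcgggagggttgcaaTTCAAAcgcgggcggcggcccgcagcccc
Ccnb2, chr9:70421555-70421804, minus strand: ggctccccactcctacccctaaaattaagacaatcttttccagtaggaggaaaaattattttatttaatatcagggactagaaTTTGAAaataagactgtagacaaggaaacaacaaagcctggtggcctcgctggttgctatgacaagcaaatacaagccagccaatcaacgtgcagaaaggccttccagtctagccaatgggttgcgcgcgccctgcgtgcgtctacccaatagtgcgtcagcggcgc
In Mcm5 a TTTCGCGC word and a reversed TTTGGCGC word overlap, while Mcm6 holds such a pair and a further single word nearer the start. In Cdc20 and Ube2c the CHR word begins 18 and 29 bases before the start, and in Ccnb2 it begins 167 bases before it.

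The libraries held between 11135713 and 50519825 estimated counts, and a difference was called where edgeR's quasi-likelihood test, adjusted by Benjamini-Hochberg over all tested genes, gave an adjusted p of at most 0.05. Fold changes are on the log2 scale with SE, and levels are TMM-scaled CPM (a gene's count as a share of the library total, on a fixed common scale), so levels are compared between libraries and not between genes. Several libraries went against their labels or stood apart. The 6 WT pre-tx libraries held both coreceptors whatever their label (Cd4 at 81.1 to 106 CPM and Cd8a at 93.0 to 149 CPM in those labelled CD8+, and 70.7 to 141 and 134 to 155 CPM in those labelled CD4+), with summed B cell markers (all 12 of 12 listed genes read) of 5234 to 6121 and 6668 to 8137 CPM, against 205 to 428 and 497 to 674 CPM in *Cat-Tg* pre-tx libraries. Summed erythroid markers reached 4626 to 27260 CPM in *Cat-Tg* CD4+ post-tx libraries, against 656 to 1114 CPM in WT CD4+ post-tx libraries. *Cat-Tg* CD4+ post-tx replicate 1 had the highest of these sums and the smallest library. In *Cat-Tg* CD8+ pre-tx replicates 1, 2 and 3, summed granulocyte precursor markers were 1720, 1185 and 54.6 CPM. Erythroid sums there were 12300, 7116 and 1753 CPM, and myeloid sums 2452, 2105 and 468 CPM. Replicate 1 was the highest of that group for 31 of the 50 members, and the part of these markers was not tested. WT CD8+ post-tx libraries differed among themselves, as given below. WT libraries came from the RH series of labels and *Cat-Tg* libraries from the MM series, so genotype and label series cannot be told apart. Mouse Ctnnb1, the endogenous β-catenin gene, overlapped between the genotypes in each cell type and time (69.3 to 172 against 8.10 to 88.0 CPM in CD8+ post-tx cells, for example), and it does not check the labels, since the transgene is human.

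On a scale per length, mean TPM over all 24 libraries was highest for Stmn1 (260.0), which binds tubulin dimers, then Cenpa (230.8), the centromeric histone, and Birc5 (162.7), and lowest for Ttk (3.38) and Cenpe (2.68), a long centromeric kinesin. In 34 of the 50 members (12 S phase, 22 mitosis) all 12 post-tx libraries lay above all 12 pre-tx libraries in CPM, as in 1.24% of 19092 tested genes, and in the other 16 they overlapped. These 16 included Pcna, E2f1, Cdt1, Cdc45, Top2a and Kif23.

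Summed over the members, both phases moved in the same direction. The S phase sum was 734 to 1026 CPM in *Cat-Tg* CD8+ pre-tx libraries and 5522 to 6892 CPM post-tx, and the mitosis sum went from 289 to 469 to 4206 to 5437 CPM. In WT CD8+ libraries the S phase sum went from 775 to 994 to 4648 to 6193 CPM and the mitosis sum from 415 to 658 to 5649 to 5837 CPM. CD4+ libraries ended lower: S phase sums of 2132 to 2804 (*Cat-Tg*) and 2524 to 3586 CPM (WT) post-tx, from 625 to 708 and 880.4 to 981 CPM pre-tx. Their mitosis sums were 1705 to 2524 and 2784 to 3656 CPM post-tx, from 278 to 329.7 and 343 to 481 CPM. No post-tx library overlapped a pre-tx library in either sum. The ratio of the mitosis sum to the S phase sum was 0.756 to 0.789 in *Cat-Tg* and 0.943 to 1.22 in WT CD8+ post-tx libraries, and 0.800 to 0.916 and 1.02 to 1.10 in CD4+ post-tx libraries, so that the *Cat-Tg* ratios lay below the WT ratios without overlap in both cell types. In CD8+ pre-tx libraries the *Cat-Tg* ratios (0.325 to 0.4885) also lay below the WT ratios (0.535 to 0.682). In CD4+ pre-tx libraries they overlapped (0.444 to 0.498 and 0.358 to 0.4905). Transcript length moved with the genotype values in CD8+ post-tx cells, as given below, and its part in the ratio was not tested. The post-tx split in the ratio is a description of the sums and was not tested. Markers of other cells moved with this split in CD8+ post-tx libraries too. Summed erythroid markers (13 of 14 listed genes in the table, all with reads in both groups) were 2957 to 4456 CPM in *Cat-Tg* and 254 to 2061 CPM in WT, and summed myeloid markers (12 of 12) 376 to 784 and 195 to 312 CPM, without overlap, and their part in the ratio was not tested. In bulk libraries, fewer cells in cycle and less RNA per cycling cell cannot be told apart.

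**Figure D1:**
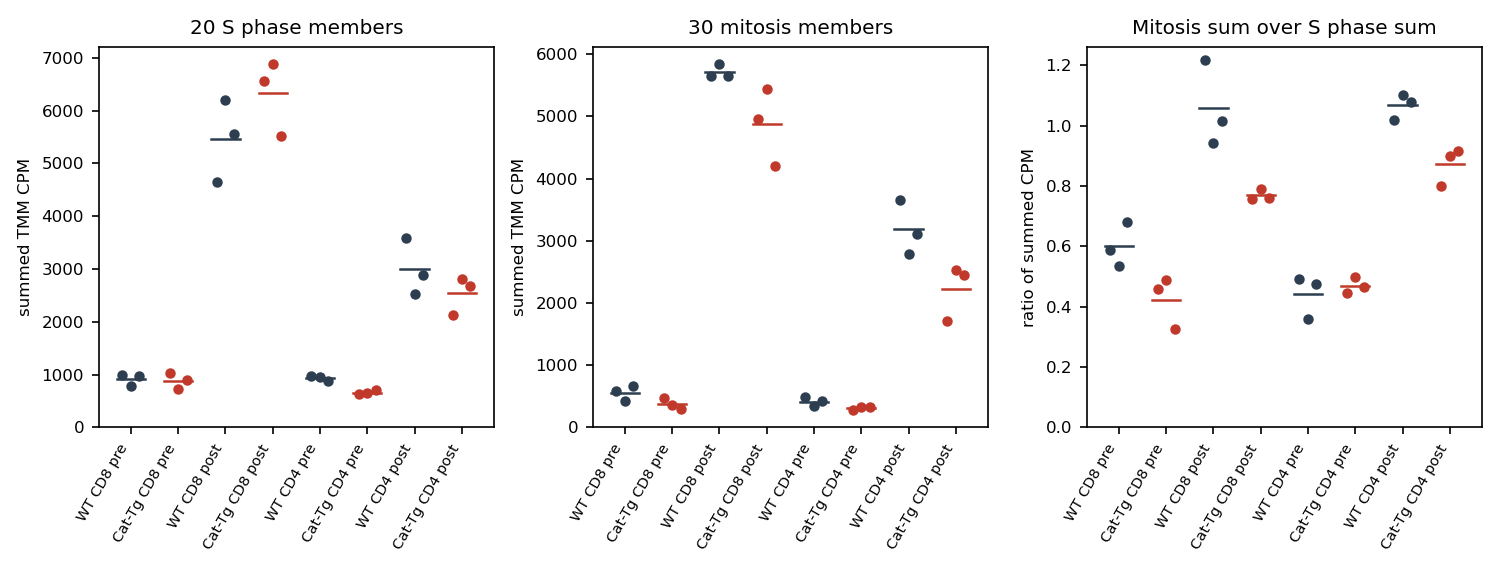
Summed TMM CPM of the 20 S phase members (left) and the 30 mitosis members (middle) and the ratio of the sums (right), 1 point per library, a line at the group mean, WT dark and *Cat-Tg* red. The post-tx sums lie above the pre-tx sums in every group, the CD8+ post-tx sums lie above the CD4+ ones, and the *Cat-Tg* post-tx ratios lie below the WT ones.

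The first comparison asked what transplantation did to these genes in *Cat-Tg* T cells. In *Cat-Tg* CD8+ cells 42 of the 50 members rose post-tx (18 of 20 S phase, 24 of 30 mitosis) and 0 fell, where 8.73% and 5.25% of all 15975 tested genes did so. The median log2 fold change of the members was 3.37, and that of all tested genes was -0.26. The largest rises were those of Mybl2, the gene of B-Myb (6.90 ± 0.84, adjusted p = 0.00014) and Plk1, a kinase that starts and ends mitosis (5.55 ± 1.00, adjusted p = 0.0024), and the smallest among the called members were those of Mad2l1 (1.86 ± 0.54, adjusted p = 0.033) and Cdt1, a licensing factor (1.96 ± 0.61, adjusted p = 0.045).

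Mki67, the gene of the Ki-67 antigen, was at 18.2, 12 and 4.47 CPM in the *Cat-Tg* CD8+ pre-tx libraries and 232, 79.1 and 72.0 CPM post-tx (3.48 ± 0.72, adjusted p = 0.0059). Replicate 1 had the highest Mki67 level of the post-tx group, and the groups did not overlap. Birc5, the survivin gene, went from 15.6, 15.4 and 10.4 to 318, 431 and 341 CPM (4.73 ± 0.39, adjusted p = 4.7e-06), with each post-tx library far above the pre-tx ones. Mcm5, a subunit of the replicative helicase, went from 91.9, 76.2 and 84.7 to 962, 931 and 1075 CPM (3.57 ± 0.50, adjusted p = 0.00039). Rrm2, the regulated subunit of ribonucleotide reductase, went from 25.3, 11.5 and 10.9 to 428, 483 and 224 CPM (4.58 ± 0.48, adjusted p = 3.9e-05). In these 4 genes the pre-tx libraries were low in all 3 cases, and the post-tx libraries varied most, relative to their mean, in Mki67.

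By role, all 11 origin licensing and helicase members rose, as did all 4 of the nucleotide supply group, all 4 of the cyclins with Cdk1 and all 5 of the kinases and passenger proteins. The 8 members that did not pass the test in *Cat-Tg* CD8+ cells were Pcna, E2f1, Bub1, Ttk, Cenpf, Hmmr, Kif23 and Nusap1. Pcna was at 169, 152 and 155 CPM pre-tx and 326, 361 and 234 CPM post-tx (0.96 ± 0.52, adjusted p = 0.20), so the groups did not overlap but the fold was small beside the other members. Kif23, a kinesin of the central spindle, had a value below 0 (-0.60 ± 0.57, adjusted p = 0.45), with 50.5, 57.0 and 36.7 CPM pre-tx and 48.8, 35.7 and 10.3 CPM post-tx. Its scales did not move alike in *Cat-Tg* cells. Mean TPM went from 57.1 to 19.3 in CD8+ and from 20.1 to 14.9 in CD4+ cells, where mean CPM went from 17.8 to 20.6.

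In *Cat-Tg* CD4+ cells 45 of 50 members rose (18 S phase, 27 mitosis) and 0 fell, against 16.2% and 29.0% of 17243 tested genes, with a median of 2.36 for the members and -0.38 for all genes. Aurkb, the kinase of the chromosomal passenger complex (5.84 ± 0.75, adjusted p = 3.8e-05), and Uhrf1 (4.32 ± 0.37, adjusted p = 1.8e-06) had the highest values, and Hmmr, a spindle protein (1.07 ± 0.42, adjusted p = 0.046), the lowest of those called. Aurkb was at 0.124 to 2.24 CPM pre-tx (median 0.405) and 58.1 to 73.4 CPM post-tx. Its lowest pre-tx library lay within the 0.0594 to 0.269 CPM that 3 counts are worth. Mki67 went from 8.17, 16.0 and 11.8 to 57.0, 153 and 119 CPM (2.86 ± 0.38, adjusted p = 5.1e-05) and Cdk1, the mitotic kinase, from 6.22, 11.9 and 17.6 to 32.2, 65.6 and 56.4 CPM (1.77 ± 0.38, adjusted p = 0.0019). In both genes replicate 1 was the lowest of the 3 post-tx libraries, as it was for 38 of the 50 members, and it was still above every pre-tx library. The 5 members that did not pass were Pcna, Cdc45, Bub1, Mad2l1 and Kif23. Pcna did not separate the groups at all (112, 184 and 145 CPM pre-tx, 123, 190.1 and 179 CPM post-tx; -0.17 ± 0.27, adjusted p = 0.62). E2f1 passed in this comparison (1.65 ± 0.64, adjusted p = 0.047), with 5.48, 0.700 and 3.42 CPM pre-tx and 18.7, 12.7 and 5.93 CPM post-tx.

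With the summed erythroid and B cell markers of each library as covariates, the calls fell to 4 in *Cat-Tg* CD8+ cells and 0 in *Cat-Tg* CD4+ cells. The median SE of the members rose from 0.58 to 1.33 and from 0.40 to 1.92, while their medians were 3.35 and 3.45. Summed B cell markers were 205 to 428 CPM pre-tx and 72.8 to 85.8 CPM post-tx in *Cat-Tg* CD8+ libraries. In *Cat-Tg* CD4+ libraries they were 497 to 674 and 103 to 135.5 CPM, and erythroid sums 1350 to 2136 and 4626 to 27260 CPM. None of these overlapped, so these markers and transplantation cannot be told apart by such a fit. With erythroid markers as the only covariate, an alternative chosen after the data were seen, 41 and 34 members rose, and in a fit that left out all WT pre-tx libraries, chosen likewise, 41 and 47 did.

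In WT cells the same comparison rests on the pre-tx libraries that went against their labels. There 42 of 50 members rose in those labelled CD8+ (16 S phase, 26 mitosis; 13.2% of all genes rose and 10.4% fell; median 3.08 against -0.23) and 48 of 50 in those labelled CD4+ (18 S phase, all 30 mitosis; 14.8% and 9.64%; median 2.61 against -0.14), and 0 fell in either. In WT CD4+ cells Mki67 had the highest value of the members (4.43 ± 0.41, adjusted p = 2e-06), from 14.0, 7.08 and 10.1 to 236, 173 and 201 CPM. Mcm2 had the lowest of the called values there (1.18 ± 0.28, adjusted p = 0.0068), with 102, 116 and 115 CPM pre-tx and 308, 146 and 232 CPM post-tx. Only Cdt1 and E2f1 did not pass the test among the members in WT CD4+ cells (0.08 ± 0.29 and 0.29 ± 0.62).

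WT CD8+ post-tx libraries varied among themselves. Cdk1 was at 554, 139.7 and 238 CPM in replicates 1, 2 and 3, from 12.6, 7.38 and 8.74 CPM pre-tx (5.13 ± 0.57, adjusted p = 2.4e-05), and Pcna was at 1399, 179 and 611 CPM, from 59.7, 39.1 and 48.4 CPM pre-tx (4.0 ± 0.58, adjusted p = 0.00018). Mcm5 ran the other way over the same libraries, at 355, 2063 and 1281 CPM, from 77.9, 70.0 and 68.1 CPM pre-tx (4.22 ± 0.52, adjusted p = 4.7e-05). Replicate 1 was thus the highest for Cdk1 and Pcna and the lowest for Mcm5, and replicate 2 the reverse. Over the 50 members, replicate 1 was highest in 26 and lowest in 17, and replicate 2 was highest in 16 and lowest in 30. Cell markers differed among these libraries too. Summed T cell markers were 5595, 15010 and 9859 CPM in replicates 1, 2 and 3. Summed NK cell markers, which include Gzma, were 6810, 508 and 2214 CPM. The part of these markers in the differences was not tested. In both genotypes, members that were not called in CD8+ cells included E2f1, Cenpf, Hmmr and Kif23. With the erythroid and B cell covariates 0 members rose in either WT comparison (median SE of the members 3.70 and 5.38), and with erythroid markers alone 26 and 5 did. With both covariates the values of Mki67, Top2a, Ccnb1, Pcna and E2f1 in CD8+ and of Mcm2 in CD4+ cells fell below 0. The other single genes followed through the alternatives kept their sign there. WT erythroid sums were 3349 to 12400 and 9300 to 27020 CPM pre-tx, and 254 to 2061 and 656 to 1114 CPM post-tx, in CD8+ and CD4+ libraries. B cell sums were 5234 to 6121 and 6668 to 8137 CPM pre-tx, and 53.1 to 116.5 and 65.1 to 87.4 CPM post-tx. Neither sum overlapped between pre-tx and post-tx libraries, so these fits cannot tell the markers and transplantation apart. The part of the markers in the result was not tested.

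**Figure D2:**
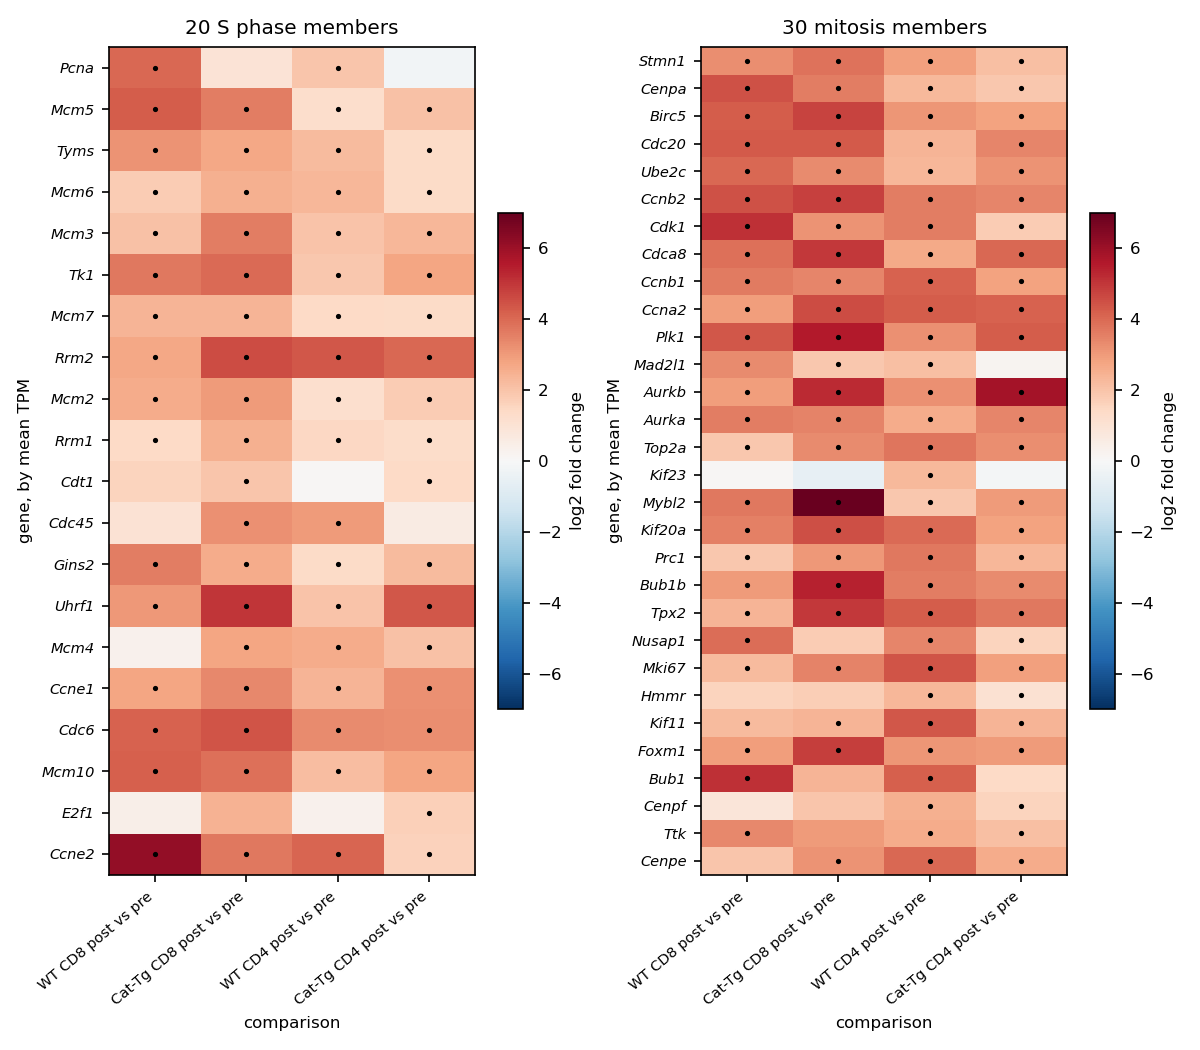
Log2 fold change post-tx against pre-tx of each S phase member (left) and mitosis member (right), genes in rows by mean TPM, the 4 comparisons in columns, and a dot where the adjusted p was at most 0.05. Nearly all cells are red; Pcna is pale in both *Cat-Tg* columns, and Kif23 is coloured and called in the WT CD4+ column, where its value is 2.28.

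**Figure D3:**
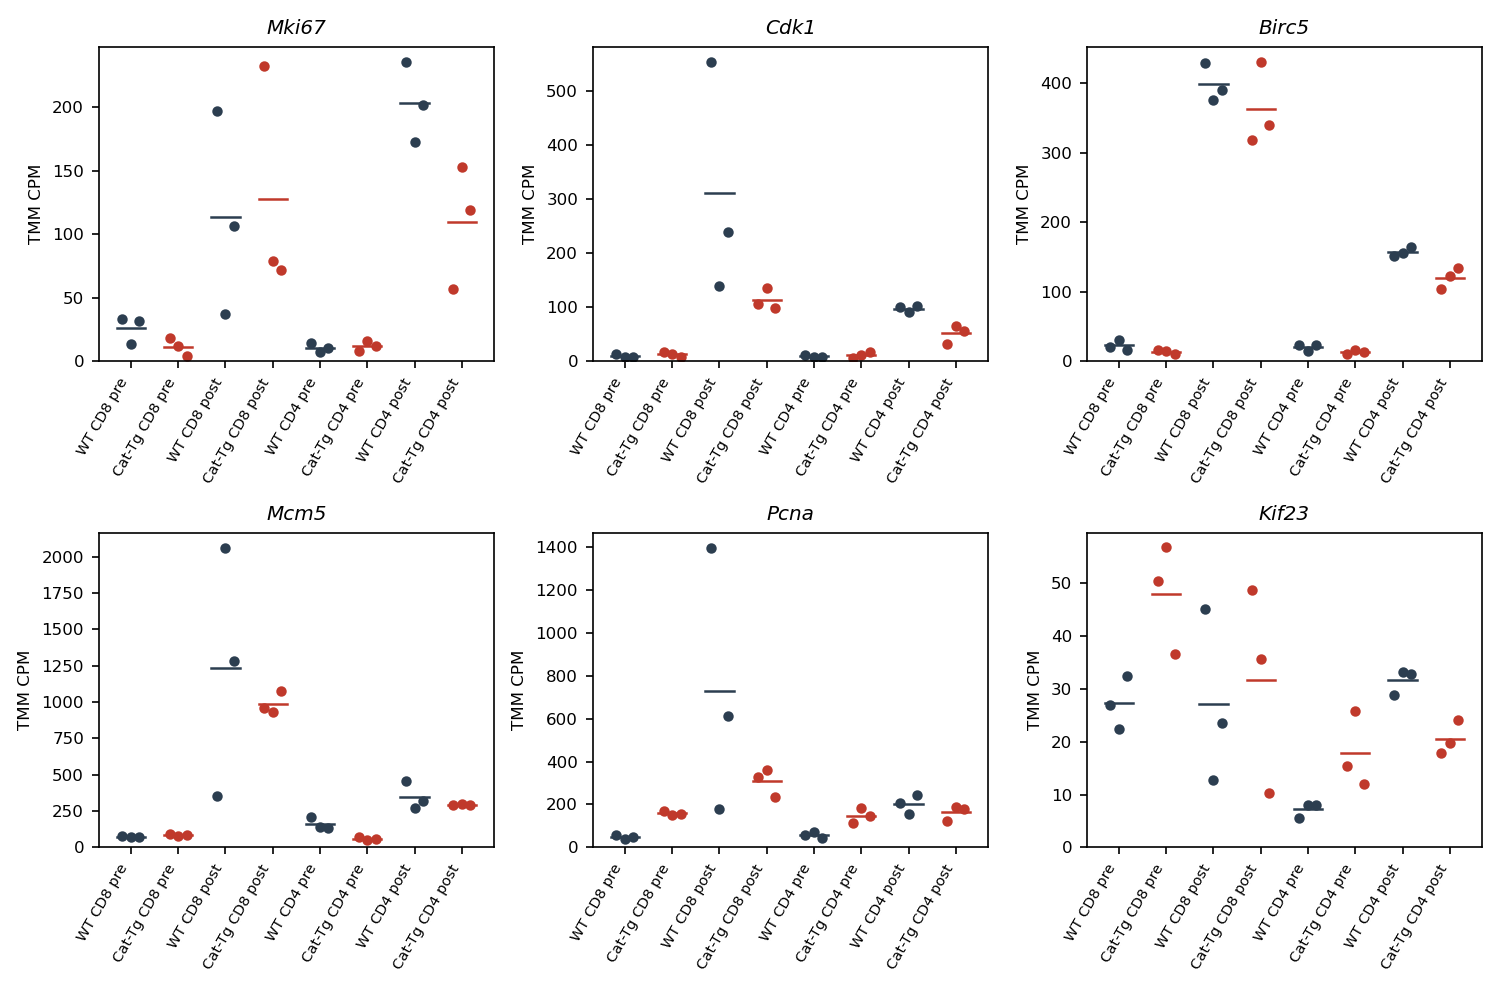
TMM CPM of 6 members in each of the 24 libraries, 1 point per library, a line at the group mean, WT dark and *Cat-Tg* red. Mki67, Cdk1, Birc5 and Mcm5 are low in all pre-tx groups, while Pcna and Kif23 are higher in *Cat-Tg* than in WT CD4+ pre-tx libraries.

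The other pathway genes, fixed by name as further lists, were read alongside. Of 16 further replication genes 11 rose in *Cat-Tg* CD8+, 8 in *Cat-Tg* CD4+, 10 in WT CD8+ and 12 in WT CD4+ post-tx cells, and of 18 further mitosis genes 10, 13, 12 and 16 did, where 8.73%, 16.2%, 13.2% and 14.8% of all genes rose. None of either list fell in edgeR. In *Cat-Tg* CD8+ cells Orc1, an origin recognition subunit (4.92 ± 1.00, adjusted p = 0.0053), and Lig1, the replicative ligase (4.25 ± 0.45, adjusted p = 4e-05), led the first list, and Cdca5, the sororin gene (6.24 ± 0.72, adjusted p = 9.6e-05), the second. Of 9 further G1 genes (cyclins and kinases, with the E2F transcription factor gene E2f2 among them) 4 were higher in *Cat-Tg* CD8+ and 7 in *Cat-Tg* CD4+ cells. E2f2 led in both (3.85 ± 0.55 and 3.03 ± 0.31). Of 14 cell cycle inhibitors and pocket proteins, 4 rose in *Cat-Tg* CD8+ cells, and 5 rose and 1 fell in *Cat-Tg* CD4+ cells, where 29.0% of all genes fell. Cdkn1a, the p21 inhibitor of cyclin-dependent kinases, led the list in *Cat-Tg* CD4+ cells (5.06 ± 0.43, adjusted p = 1.8e-06) and in WT CD4+ cells (2.62 ± 0.39, adjusted p = 0.00017), at 271, 115 and 110.4 and 65.9, 47.9 and 59.7 CPM post-tx.

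The next comparison asked whether post-tx levels differed between *Cat-Tg* and WT cells. In CD8+ cells 0 members were higher and 0 were lower in edgeR, where 1.10% and 0.570% of all genes were. There, 11 had an unadjusted p under 0.05 (19.1% of all genes), and DESeq2 called 1 higher and 2 lower, limma-voom 0. The median was 0.35 for S phase members and -0.26 for mitosis members, with 12 of 20 and 12 of 30 above 0, and -0.18 for all genes. Mki67 (0.10 ± 0.66, adjusted p = 0.95) and Pcna (-1.33 ± 0.52, adjusted p = 0.20) overlapped between the genotypes. Without *Cat-Tg* replicate 3, 1 member was higher, and without WT replicate 2, 3 were lower. The value of Mki67 was -0.67 without *Cat-Tg* replicate 1 and -0.22 without WT replicate 2. Transcript length moved with these values: the 25 shortest members (968 to 2511 bases) had a median of -0.62 and the 25 longest (2557 to 9688 bases) 0.33, and over all tested genes those under 1000 bases had a median of -0.69 and those over 3000 bases 0.09. With each library's trend on length as an offset, an alternative chosen after the data were seen, the medians of the shorter and longer members were -0.18 and 0.17.

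In CD4+ post-tx cells 49 of the 50 members had a fitted log2 fold change below 0, *Cat-Tg* against WT, including all 30 mitosis members, where 61.1% of all genes did. By mean CPM, scaled over all 24 libraries, 47 were lower, 29 of them mitosis members, and Cdt1, Gins2 and Ccnb2 were not. Of these values 1 passed the test as lower and 0 as higher (6.48% and 3.69% of all genes). That member was Tyms, thymidylate synthase, at 78.7, 108 and 84.3 CPM in *Cat-Tg* and 173, 135 and 141 CPM in WT libraries (-0.96 ± 0.28, adjusted p = 0.040). The groups did not overlap for Tyms. The median was -0.47 for S phase members and -0.89 for mitosis members, against -0.19 for all genes, and 16 members had an unadjusted p under 0.05 (24.5% of all genes). Cdk1 was at 32.2, 65.6 and 56.4 CPM in *Cat-Tg* and 99.8, 90.6 and 102 CPM in WT libraries (-1.15 ± 0.37, adjusted p = 0.057), and Mki67 at 57.0, 153 and 119 and 236, 173 and 201 CPM (-1.13 ± 0.35, adjusted p = 0.054). In both genes every *Cat-Tg* library was below every WT library without passing the threshold. In 19 of the 50 members the genotypes did not overlap in CPM, as in 28.5% of all tested genes. With DESeq2 size factors 2 members had a value above 0 in place of 1, and with the length offset 7 did, Mki67 among them at 0.098. These scalings moved the median of all genes by 0.14 and 0.28.

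The number of calls in CD4+ post-tx cells depended on the method, with 8 lower members in limma-voom, 4 in DESeq2 and 0 with the length offset, with erythroid markers as a covariate or in the fit without WT pre-tx libraries. Leaving out 1 library at a time gave 0 to 3, with 0 without any 1 WT library and without *Cat-Tg* replicate 1 or 3, and 3 without *Cat-Tg* replicate 2. *Cat-Tg* CD4+ post-tx libraries also had higher summed myeloid markers (5661 to 6588 against 1004 to 1552 CPM) and Klf1, the erythroid transcription factor, at 24.9 to 96.5 against 0 to 2.43 CPM, while summed T cell markers overlapped (4739 to 6578 and 4985 to 7055 CPM). With erythroid markers as the only covariate the members' median was -0.38 with a median SE of 0.85. Among the other pathway genes Cdkn1a was higher in *Cat-Tg* CD4+ post-tx cells (1.30 ± 0.37, adjusted p = 0.035) and Kif15, a spindle kinesin, was lower (-1.39 ± 0.38, adjusted p = 0.030).

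**Figure D4:**
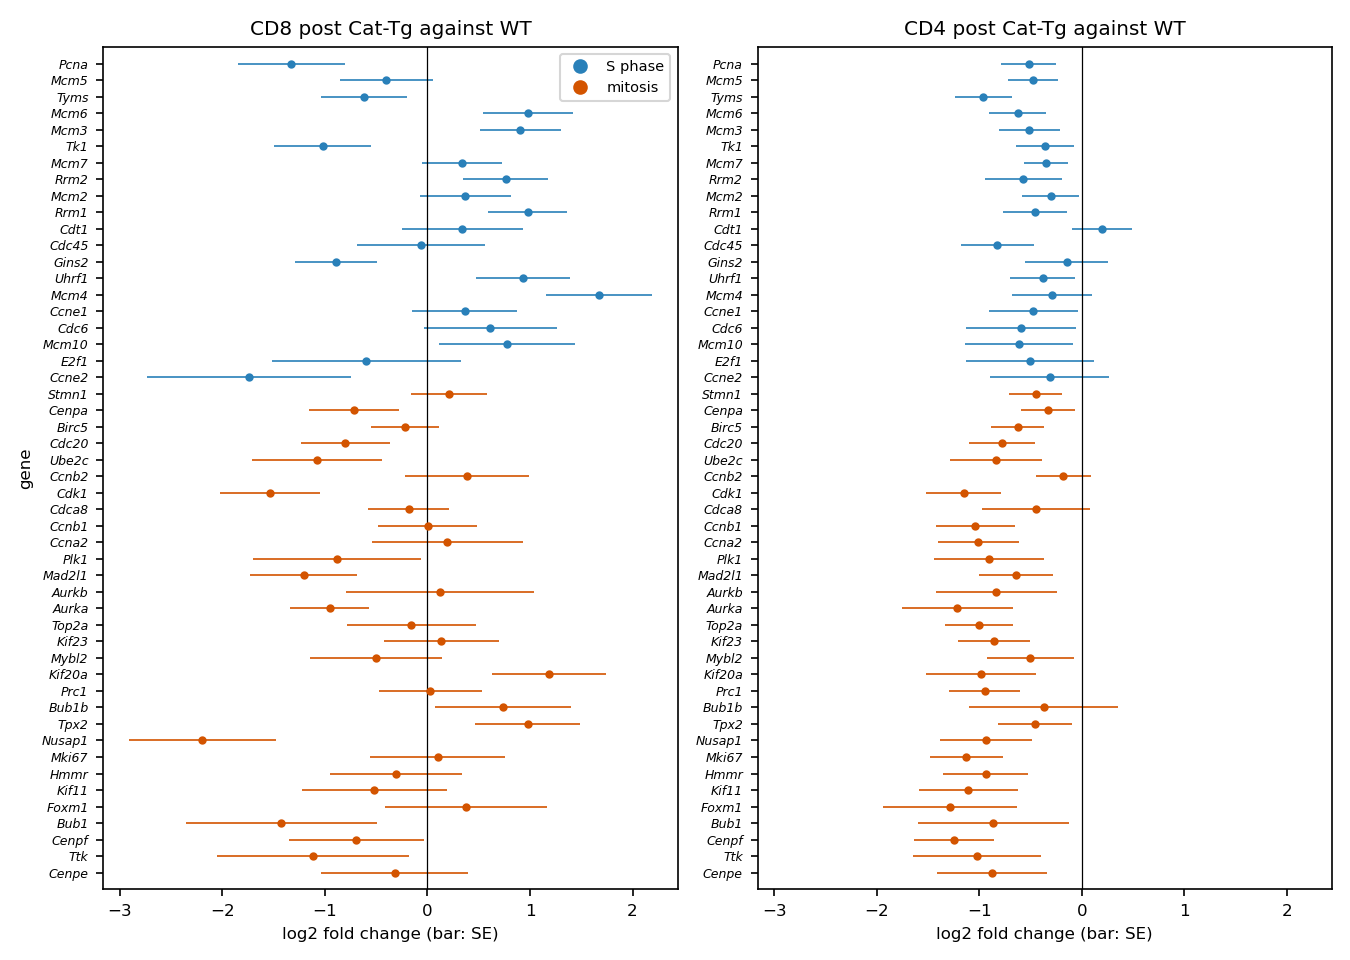
Log2 fold change of each member, *Cat-Tg* against WT, in CD8+ (left) and CD4+ (right) post-tx cells, with a bar of 1 SE on each side; S phase members are blue and mitosis members orange. On the right every point but that of Cdt1 lies below 0, and on the left the points lie on both sides.

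Before transplantation the genotypes were compared against WT libraries that held both coreceptors and B cell markers. In CD8+ pre-tx libraries 2 members were lower in *Cat-Tg* (4.48% of all genes) and 0 were higher (4.51%; DESeq2 called 1 higher and 6 lower, limma-voom 0 higher, and 16 members had an unadjusted p under 0.05 in either direction, as did 23.1% of all genes). These were Mybl2 (-3.71 ± 0.73, adjusted p = 0.0054), at 0.548, 2.91 and 0.750 CPM in *Cat-Tg* and 21.1, 20.3 and 15.0 CPM in WT libraries, and Cdc45, a helicase cofactor (-2.27 ± 0.65, adjusted p = 0.041), at 13.7, 12 and 13.2 and 96.7, 6.70 and 84.0 CPM. For Cdc45 WT replicate 2 lay below all 3 *Cat-Tg* libraries and the other two far above. The count of lower members was 5 without *Cat-Tg* replicate 1, 4 without WT replicate 2, and 1 without *Cat-Tg* replicate 3 or WT replicate 1 or 3.

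In CD4+ pre-tx libraries 5 members were higher in *Cat-Tg* (13.3% of all genes) and 12 lower (7.18%). The higher ones were Ccne2, Cdc45, Pcna, Kif23 and Mad2l1, and the lower ones Cdt1, Mcm2, Mcm5, Tk1, Uhrf1, Aurka, Aurkb, Cdc20, Cdca8, Mybl2, Plk1 and Ube2c. Pcna was at 112, 184 and 145 CPM in *Cat-Tg* and 57.0, 69.2 and 44.0 CPM in WT libraries (1.61 ± 0.27, adjusted p = 0.00074), with no overlap. Uhrf1 (-2.69 ± 0.35, adjusted p = 0.00011) was at 4.55, 6.86 and 4.09 and 49.8, 23.6 and 44.5 CPM, and Aurkb had the lowest value of all members (-3.45 ± 0.69, adjusted p = 0.0022). Its levels were low, at 0.124 to 2.24 CPM in *Cat-Tg* and 5.78 to 18.4 CPM in WT libraries. Without WT CD4+ pre-tx replicate 1 there was 1 higher member, and with erythroid markers as the covariate 0 were called in either direction.

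Whether the change with transplantation differed between genotypes was tested as an interaction. In CD8+ cells 3 members had a larger change in *Cat-Tg* (5.93% of all genes) and 1 a smaller one (4.77%). Mybl2 (3.21 ± 0.95, adjusted p = 0.041), Tpx2, a spindle assembly factor (2.55 ± 0.73, adjusted p = 0.037), and Mcm4 (2.46 ± 0.72, adjusted p = 0.040) were the former and Pcna the latter (-3.04 ± 0.74, adjusted p = 0.017). None of the 4 passed with the length offset, and leaving out 1 library gave between 1 and 8 calls. There was 1 without *Cat-Tg* post-tx replicate 1 or 2 or WT pre-tx replicate 1 or 3, 2 without *Cat-Tg* pre-tx replicate 3, and 7 and 8 without WT post-tx replicate 1 and 2.

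In CD4+ cells 3 members had a larger change in *Cat-Tg* (7.27% of all genes), namely Cdt1, Uhrf1 and Aurkb, and 7 a smaller one (14.1%), namely Cdc45, Pcna, Cdk1, Kif23, Mad2l1, Mki67 and Nusap1. The Aurkb value rests on *Cat-Tg* pre-tx levels of 0.124 to 2.24 CPM. The median of all genes in this contrast was -0.55, and with DESeq2 size factors, which moved it by 0.34, 4 members were called larger and 5 smaller. With the length offset 5 were called larger and 4 smaller. The interaction was -2.13 ± 0.38, adjusted p = 0.0014 for Pcna, -1.79 ± 0.52, adjusted p = 0.025 for Cdk1 and -1.57 ± 0.50, adjusted p = 0.037 for Mki67. Pcna was thus called in both cell types, with higher pre-tx levels in *Cat-Tg* libraries and overlapping post-tx levels. Calls fell to 6 without *Cat-Tg* post-tx replicate 1, WT pre-tx replicate 1 or 2 or WT post-tx replicate 3, to 5 without WT post-tx replicate 2, and to 0 with erythroid markers as a covariate.

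CD8+ and CD4+ cells of the same genotype and time were compared last. In *Cat-Tg* pre-tx libraries 0 members differed in edgeR (0.367% of all genes were higher in CD8+ and 1.16% lower), while 8 had an unadjusted p under 0.05 (10.3% of all genes), DESeq2 called 2 and limma-voom 0. Without CD8+ replicate 2 there was 1. In *Cat-Tg* post-tx libraries 11 members were higher in CD8+ cells (1.49%) and 0 lower (4.51%), 7 of them S phase members: Mcm2, Mcm3, Mcm5, Mcm6, Mcm7, Tk1 and Uhrf1, with Birc5, Cdc20, Cenpa and Stmn1 of mitosis. Mcm5 was at 962, 931 and 1075 CPM in CD8+ and 288, 296 and 294 CPM in CD4+ cells (1.76 ± 0.38, adjusted p = 0.0051), and Birc5 at 318, 431 and 341 and 105, 122 and 134 CPM (1.60 ± 0.29, adjusted p = 0.00093). The median was 1.28 for S phase and 1.02 for mitosis members. The count was 5 without CD4+ replicate 2, 6 without CD8+ replicate 1 or CD4+ replicate 3, 7 without CD8+ replicate 2, and 18 in limma-voom. Summed T cell markers were 9204 to 9755 CPM in *Cat-Tg* CD8+ and 4739 to 6578 CPM in *Cat-Tg* CD4+ post-tx libraries. Cd3e was at 968 to 1046 and 442 to 505 CPM, and summed myeloid markers were 376 to 784 and 5661 to 6588 CPM. None of these markers overlapped, and their part in the difference between the cell types was not tested.

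WT post-tx libraries had 9 members higher in CD8+ cells (5.98%) and 0 lower (7.17%): Gins2, Mcm5, Pcna, Tk1, Birc5, Cdc20, Cdk1, Cenpa and Mad2l1, led by Tk1, thymidine kinase (2.12 ± 0.40, adjusted p = 0.00083). The values followed transcript length here. The 25 shortest members had a median of 1.03 and the 25 longest 0.04, with Spearman's rho of -0.66 between length and log2 fold change across the 50 genes, which share their libraries and are not independent replicates. Across all 19092 tested genes it was -0.24, with medians of 0.61 under 1000 bases and -0.43 over 3000 bases. Mki67, the longest member at 9688 bases, had a value of -0.84 ± 0.56. In *Cat-Tg* the shorter and longer members had medians of 1.09 and 1.12, and the rho over all genes was -0.07. With the length offset the WT medians became 1.15 and 0.66, and 11 members were called. Summed myeloid markers were 195 to 312 CPM in WT CD8+ and 1004 to 1552 CPM in WT CD4+ post-tx libraries, without overlap. Summed T cell markers overlapped (5595 to 15010 and 4985 to 7055 CPM). The part of these markers was not tested in WT either.

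**Figure D5:**
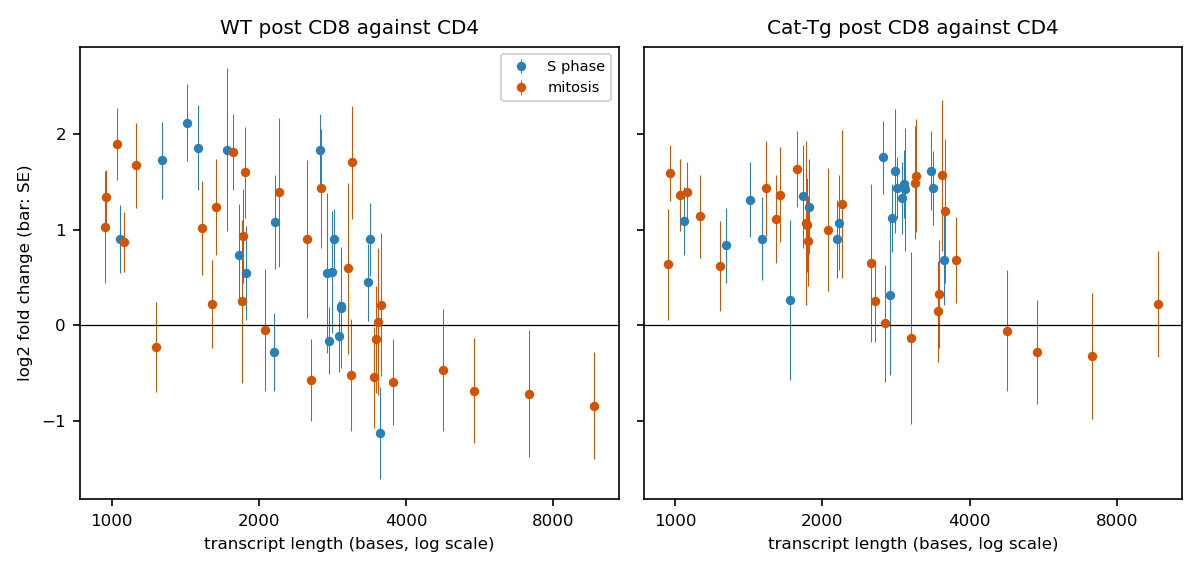
Log2 fold change of each member, CD8+ against CD4+ post-tx, by transcript length on a log axis, in WT (left) and *Cat-Tg* (right), with bars of 1 SE; S phase members are blue and mitosis members orange. In WT the values fall with length to below 0 for the longest members, and in *Cat-Tg* the medians of the shorter and longer members are alike at 1.09 and 1.12.

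In the test of the difference between the cell types' changes with transplantation in *Cat-Tg* mice, 1 member, Mybl2, had a larger change in CD8+ cells (3.58 ± 0.86, adjusted p = 0.042) and 0 a smaller one, against 0.220% and 0.728% of all genes. The members' median was 0.64, with 42 of 50 above 0. Mybl2 went from 0.548, 2.91 and 0.750 to 140.1, 196 and 164 CPM in CD8+ and from 5.82, 3.87 and 7.38 to 59.9, 54.2 and 55.0 CPM in CD4+ cells, so its CD8+ pre-tx libraries were the lowest and its CD8+ post-tx libraries the highest of the 4 groups. Leaving out 1 library gave 0 to 2 calls. There were 0 without any 1 post-tx library, CD8+ pre-tx replicate 3 or CD4+ pre-tx replicate 3, and 2 without CD8+ pre-tx replicate 2.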

How the data were processed

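RNA of sorted splenic T cells was read in 24 libraries (SMARTseq HT cDNA, Nextera XT libraries). The authors deposited, per library, the Kallisto 0.46.2 table of 117497 transcripts: the estimated count (reads pseudoaligned to a transcript index, not normalized), the TPM and the transcript length. The submitters' processing notes name the mm9 build; the index release is not given in the sources used here. The TPM deposited by the authors is scaled per length and library total, and served to compare levels between genes and in 1 alternative.

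Transcripts were matched to GENCODE M21 by identifier without version, and estimated counts were summed to 35868 gene symbols and rounded. Levels are TMM CPM over all 24 libraries. Tests were edgeR 4.0.16 (R 4.3.3) robust quasi-likelihood fits over the 12 libraries of a cell type, or over all 24 for CD8+ against CD4+, on genes above 1 CPM in at least 3 libraries. P values were adjusted by Benjamini-Hochberg over all tested genes and called at 0.05 or less. The study normalized TPM and used voom and limma (limma 3.58.1 here as an alternative, with DESeq2 1.42.0). The steps were tested on simulated data.

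Library totals of 11135713 to 50519825 make 3 counts worth 0.0594 to 0.269 CPM. Nothing in the labels ties libraries to mice, and p values measure the spread between these libraries. The members, lists, motifs and tests were chosen with earlier results of these data known. Named genes were 10 fixed examples (Mki67, Top2a, Cdk1, Ccnb1, Birc5, Mcm2, Pcna, Rrm2, Ccne1, E2f1), the 2 highest and 2 lowest called members without overlap in each comparison, and the 2 largest called changes of each further list; Kif23, Mcm5, Cdc45, Mcm4, Tpx2 and other members singled out beyond these were chosen after their values were seen. Promoters are RefSeq, GRCm38.p6.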

Additional observations from a re-analysis of the deposited data

Results flagged for a closer look

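The change with transplantation differed between genotypes or between cell types, by the interaction test of edgeR with Benjamini-Hochberg adjustment over all tested genes, for 14 member and contrast pairs between genotypes and 1 between cell types. In CD4+ cells the *Cat-Tg* change was smaller than the WT change by a log2 difference of -2.39 for Kif23, -2.36 for Cdc45, -2.13 for Pcna, -1.91 for Mad2l1, -1.88 for Nusap1, -1.79 for Cdk1 and -1.57 for Mki67. It was larger by 1.3 for Cdt1, 2.31 for Uhrf1 and 2.62 for Aurkb, whose *Cat-Tg* pre-tx levels were 0.124 to 2.24 CPM. In CD8+ cells it was smaller by -3.04 for Pcna and larger by 2.46 for Mcm4, 2.55 for Tpx2 and 3.21 for Mybl2. The members' shares were near those of all genes: in CD4+ cells 7 of 50 were smaller against 14.1% of all genes and 3 larger against 7.27%, and in CD8+ cells 1 was smaller against 4.77% and 3 larger against 5.93%. These 14 rest on the WT pre-tx libraries that held both coreceptors and B cell markers. The change in *Cat-Tg* CD8+ cells exceeded that in *Cat-Tg* CD4+ cells by 3.58 for Mybl2 (1 of 50 members, against 0.220% of all genes), and this value uses no WT library in its contrast.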

How the results depend on the processing

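Of the counts of called members and motif shares, 207 of 276 values under settings other than leaving out a library, and 110 of 150 with 1 library left out, stayed within 1.5 times the reported count or within its counting interval. Of the values of single genes, 543 of 660 and 345 of 378 kept their direction and side of the threshold. With 3 libraries per group the precision is limited throughout, the WT pre-tx libraries bear on each comparison that uses them, and *Cat-Tg* CD4+ post-tx replicate 1 held 11135713 counts. The erythroid covariate on its own, the length offset and the fit leaving out WT pre-tx libraries were chosen after the data were seen. Except where a value shows it, the cause was not tested.

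Post-tx against pre-tx, the reported counts of members higher (42 in *Cat-Tg* CD8+, 42 in WT CD8+, 45 in *Cat-Tg* CD4+, 48 in WT CD4+) were 4, 0, 0 and 0 with erythroid and B cell covariates, where the SE grew, and 26 and 5 in WT CD8+ and CD4+ with the erythroid covariate only. B cell sums did not overlap between pre-tx and post-tx libraries in any of these comparisons, so the fit with both covariates cannot tell them and transplantation apart. With 1 library left out they ranged from 37 to 40, 33 to 40, 40 to 45 and 45 to 48. With length-scaled TPM counts 1 member was lower in *Cat-Tg* CD8+ and 1 in *Cat-Tg* CD4+, against 0.

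For *Cat-Tg* against WT post-tx CD8+ cells, 0 higher and 0 lower became 1 and 2 in DESeq2, 1 and 1 without the filter, and 0 to 1 and 0 to 3 with 1 library left out. In post-tx CD4+ cells the 1 lower member became 8 in limma-voom, 4 in DESeq2, 3 with length-scaled TPM counts and 3 with only the 6 libraries compared. It became 0 with DESeq2 size factors, without the filter, with either set of covariates, in the fit leaving out WT pre-tx libraries, with the length offset, and where log2 changes had to reach 1 or 2 in size, and 0 to 3 with 1 library left out.

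Pre-tx CD8+, the 0 higher members became 1 with DESeq2, DESeq2 size factors, no filter, 6 libraries or the erythroid covariate and 2 with length-scaled TPM counts, and the 2 lower ones 6 in DESeq2, 4 without the filter, 1 with 6 libraries, 0 with both covariates and 1 to 5 with 1 library left out. Pre-tx CD4+, the 5 higher members became 3 without the filter, 3 with 6 libraries, 0 with either set of covariates, 1 with a log2 change of 2 or more required and 1 to 5 with 1 library left out; the 12 lower became 0, 0 and 3 with the covariates and that fold, and 8 to 13.

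The 4 calls of the CD8+ interaction with genotype became 8 without the filter, 0 with both covariates, 1 with the erythroid covariate, 0 with the length offset and 1 to 8 with 1 library left out. The 10 calls in CD4+ became 0 with either set of covariates, 5 with a log2 change of 2 or more required and 5 to 10. CD8+ against CD4+, the 0 calls in *Cat-Tg* pre-tx became 2 in DESeq2, 1 with length-scaled TPM counts, 1 with the erythroid covariate and 0 to 1. The 11 calls in *Cat-Tg* post-tx became 18 in limma-voom, 27 with 6 libraries, 0 with a log2 change of 2 or more required and 5 to 9, and the 9 in WT post-tx became 16 in DESeq2, 2 with 6 libraries, 1 at that fold and 7 to 13. The 1 call of the *Cat-Tg* CD8+ minus CD4+ interaction became 2 in DESeq2, 0 in limma-voom, with DESeq2 size factors or length-scaled TPM counts, and 0 to 2. In the 150 bases before the start alone, an E2F word was in 1.24% of all and 3 of 17 S phase promoters (17.6%, from 41.2%), a CHR word in 9.07% of all and 7 of 24 mitosis promoters (29.2%, from 70.8%), and CCAAT in 24.5% of all. In the fits of only the 6 libraries compared, 48 members were tested in CD8+ and 49 in CD4+ pre-tx cells, against 50.

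Replicate numbers showed no pairing by the rule used: in no comparison did all 3 same-numbered pairs correlate above 0.1 in their deviations from the group means (lowest -0.263, highest 0.301). With 3 libraries per group this rule cannot tell whether same-numbered libraries share a mouse. With the replicate number as a block, 1 member was higher in *Cat-Tg* CD8+ pre-tx, and E2f1 in WT CD8+ post-tx against pre-tx was at -0.13. For CD8+ against CD4+ the block instead took same-numbered libraries of a genotype and time as 1 mouse. Under that assumption 6 members were called in *Cat-Tg* and 5 in WT post-tx libraries, and 0 in the *Cat-Tg* CD8+ minus CD4+ interaction.

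Some log2 values changed sign. With both covariates, post-tx against pre-tx, Pcna in *Cat-Tg* CD8+ was at -0.45, and in WT CD8+ Mki67 was at -1.09, Top2a at -1.97, Ccnb1 at -0.91, Pcna at -1.23 and E2f1 at -7.49; Mcm2 in WT CD4+ was at -0.99. With the same covariates, *Cat-Tg* against WT, Pcna in CD4+ post-tx was at 0.025, Cdk1 and Pcna in CD8+ pre-tx at -1.69 and -0.97, and Mki67 in CD4+ pre-tx at -0.84. Pcna in *Cat-Tg* CD4+ post-tx against pre-tx was at 0.056 in DESeq2 and with its size factors, 0.19 without the filter, 0.11 with the erythroid covariate, 0.16 without WT pre-tx libraries, 0.35 with the length offset and -0.37 to 0.0051 with 1 library left out. The erythroid covariate put E2f1 in *Cat-Tg* CD4+ at -0.076 and Pcna in CD8+ post-tx *Cat-Tg* against WT at 0.017. The length offset put Mki67 in CD4+ post-tx at 0.098 and Cdk1 in CD8+ pre-tx at -0.0054 (*Cat-Tg* against WT), and length-scaled TPM counts put Mki67 in CD8+ pre-tx at 0.0031. With 1 library left out, E2f1 ranged from -0.71 to 0.87 in WT CD8+ and -0.22 to 0.51 in WT CD4+ post-tx against pre-tx, and Mki67 from -0.67 to 0.86 in CD8+ post-tx *Cat-Tg* against WT.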
